A study of Mus musculus with 48 samples.

Results

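A set of 9 genes that mark the choroid plexus, of the 48709 genes counted in the series, was followed mouse by mouse: Ttr, Kl, Folr1, Prlr, Clic6, Kcne2, Kcnj13, Aqp1 and Slc4a5. They were chosen from these data, because they were high together in single libraries of the hippocampal dentate gyrus (DG), so their own levels are given as a description. The counts come from 48 libraries of 46 mice on the C57BL/6J background in 8 groups, each library holding RNA of whole tissue. Of these, 4 groups carry no amyloid transgene: Fmn2+/+ and Fmn2-/- mice of 3 months (5 and 5 mice) and of 8 months (3 and 5 mice), the Fmn2-/- mice lacking the gene in all cells. A further 2 groups of 3 months come from a cross with the amyloid line APPPS1-21 and are labelled FMN2-/-_APP (7 mice) and FMN2 +/+ APP (9 mice). The last 2 groups, of 4 months, are labelled APP (6 mice) and wild type (6 mice), and their titles name the prefrontal cortex (PFC) while their tissue label says DG. All 34 other mice are labelled and titled as DG or as the cross.

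The choroid plexus is a sheet of epithelium over a core of vessels that hangs into the brain ventricles and secretes the cerebrospinal fluid. It lies against the hippocampus along the choroid fissure, outside the DG, and its epithelial cells carry transport proteins and channels that most brain cells lack. Transthyretin, encoded by Ttr, is its best known product and carries thyroid hormone into the fluid. A gene that is high in a bulk library can reflect more cells of a type or more RNA per cell, and the 2 cannot be told apart here.

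The 34 DG mice and the 12 PFC-titled mice differed in markers as their titles say. Dentate granule cell genes summed to between 1000 and 1733 CPM (counts divided by the library total and scaled to a common total) in the former and between 345 and 434 in the latter, and cortical layer genes to between 262 and 519 and between 716 and 799. Depth lay between 6818809 and 43921030 counts per mouse. Fmn2, the targeted gene, was at 28.1 CPM or less in Fmn2-/- mice of 3 months and at 93.2 to 113 in Fmn2+/+ mice. In the cross it went against the labels, with 84.2 to 103.7 CPM in the mice labelled FMN2-/-_APP and 19.2 to 24.2 in those labelled FMN2 +/+ APP, so both groups are named below by label only. Summed Y-linked genes were above 10 CPM in 3 of 7 and 4 of 9 mice of the cross, at most 0.539 in its other mice, and above 10 CPM in all mice of the other groups. The counts of 8-month Fmn2-/- mice 2 and 3 were as alike as 2 sequencing runs of 1 mouse (chi-square per degree of freedom 1.62, against 1.72 and 2.15 for the runs), so results of the 8-month comparison are also given without them.

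On the mm10 build (GRCm38) the 9 genes lie on 7 chromosomes and all are protein-coding. Kcne2 (chr16:92292389-92298129) and Clic6 (chr16:92485736-92541243) are on the same strand, 187607 bases apart, with 4 protein-coding genes between them. Aqp1 (chr6:55336432-55348555) and Slc4a5 (chr6:83219828-83304945) share a chromosome only. Kl is at chr5:150952607-150993817, Prlr at chr15:10177238-10349180 and Folr1 at chr7:101858331-101870788 on the minus strand. Kcnj13 (chr1:87386363-87394729, minus strand) lies inside Gigyf2 on the opposite strand and shares 49.1% of its exonic bases with it, so its counts are less certain than those of the others.

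The 250 bases before the start of 4 of the genes are shown, as RefSeq gives them for GRCm38.p6. The genes were chosen for being high together, so nothing on their regulation is read from these windows. RefSeq windows were used for 6 of the 9 genes, and none for Ttr, Folr1 or Clic6. A set of 3 short motifs was searched on both strands: GGATTA, the core bound by OTX factors, GTAAACA, bound by FOX factors, and TATAAA, the TATA box, and capitals mark a match.
Kcne2, chr16:92292139-92292388, plus strand: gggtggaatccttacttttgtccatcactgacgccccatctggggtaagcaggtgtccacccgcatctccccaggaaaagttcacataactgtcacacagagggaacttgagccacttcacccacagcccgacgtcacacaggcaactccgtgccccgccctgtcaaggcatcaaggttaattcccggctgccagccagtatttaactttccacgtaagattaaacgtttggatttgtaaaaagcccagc
Kcnj13, chr1:87394730-87394979, minus strand: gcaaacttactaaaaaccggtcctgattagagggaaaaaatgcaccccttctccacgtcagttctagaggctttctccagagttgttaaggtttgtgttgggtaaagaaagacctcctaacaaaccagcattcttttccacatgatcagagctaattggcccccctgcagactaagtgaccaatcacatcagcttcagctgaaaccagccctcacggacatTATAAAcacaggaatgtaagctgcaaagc
Kl, chr5:150952357-150952606, plus strand: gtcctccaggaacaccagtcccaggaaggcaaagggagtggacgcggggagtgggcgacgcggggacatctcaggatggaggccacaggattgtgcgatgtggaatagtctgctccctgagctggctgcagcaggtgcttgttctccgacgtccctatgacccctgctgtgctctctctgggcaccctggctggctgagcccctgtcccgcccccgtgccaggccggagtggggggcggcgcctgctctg
Prlr, second of 3 starts, chr15:10223656-10223905, plus strand: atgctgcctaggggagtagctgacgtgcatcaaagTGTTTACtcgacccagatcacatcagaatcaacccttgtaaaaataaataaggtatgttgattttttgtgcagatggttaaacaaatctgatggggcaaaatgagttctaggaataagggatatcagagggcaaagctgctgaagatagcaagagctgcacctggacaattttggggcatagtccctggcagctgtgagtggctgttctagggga
Of 9 windows of these genes, 0 held GGATTA, 1 held GTAAACA and 2 held TATAAA, where 6.25%, 3.17% and 12.4% of all 32851 windows of the same length did. Kcnj13 has TATAAA beginning 29 bases before its start, and the Prlr window has the reverse complement of GTAAACA. The GC content of the 4 windows ran from 44.8% in Prlr to 66.8% in Kl.

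Ttr was far above its usual level in 3 mice. In 3-month Fmn2+/+ mice 1 to 5 it was at 19.8, 16.4, 13.7, 32.997 and 3.69 CPM, scaled by the TMM method over all mice, and in Fmn2-/- mice 1, 2, 4, 5 and 6 at 27.1, 41.3, 4138, 19.1 and 13.3 CPM. Mouse 4 of the Fmn2-/- group thus stood 2 orders of magnitude above a range that the remaining mice of both genotypes shared. In the cross the mice labelled FMN2 +/+ APP ran from 24.8 CPM over a median of 59.5 to 8934, with mouse 4 at 8934, mouse 5 at 5868 and mouse 7 at 357, while those labelled FMN2-/-_APP ran from 17.3 over 44.0 to 84.8. In cross mouse 4, 0.921% of all counts were Ttr, in mouse 5 0.605% and in 3-month Fmn2-/- mouse 4 0.384%.

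At 8 months Ttr was intermediate in 3 mice. The Fmn2+/+ mice held 61.5, 43.7 and 191 CPM and the Fmn2-/- mice 1 to 5 held 5.65, 545, 516, 67.2 and 14.5 CPM. The groups overlapped, and the high values in the Fmn2-/- group were those of the 2 near-identical libraries. In PFC-titled mice Ttr stayed at 0.0315 to 1.07 CPM in APP mice and 0 to 2.18 in wild-type mice.

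**Figure D1:**
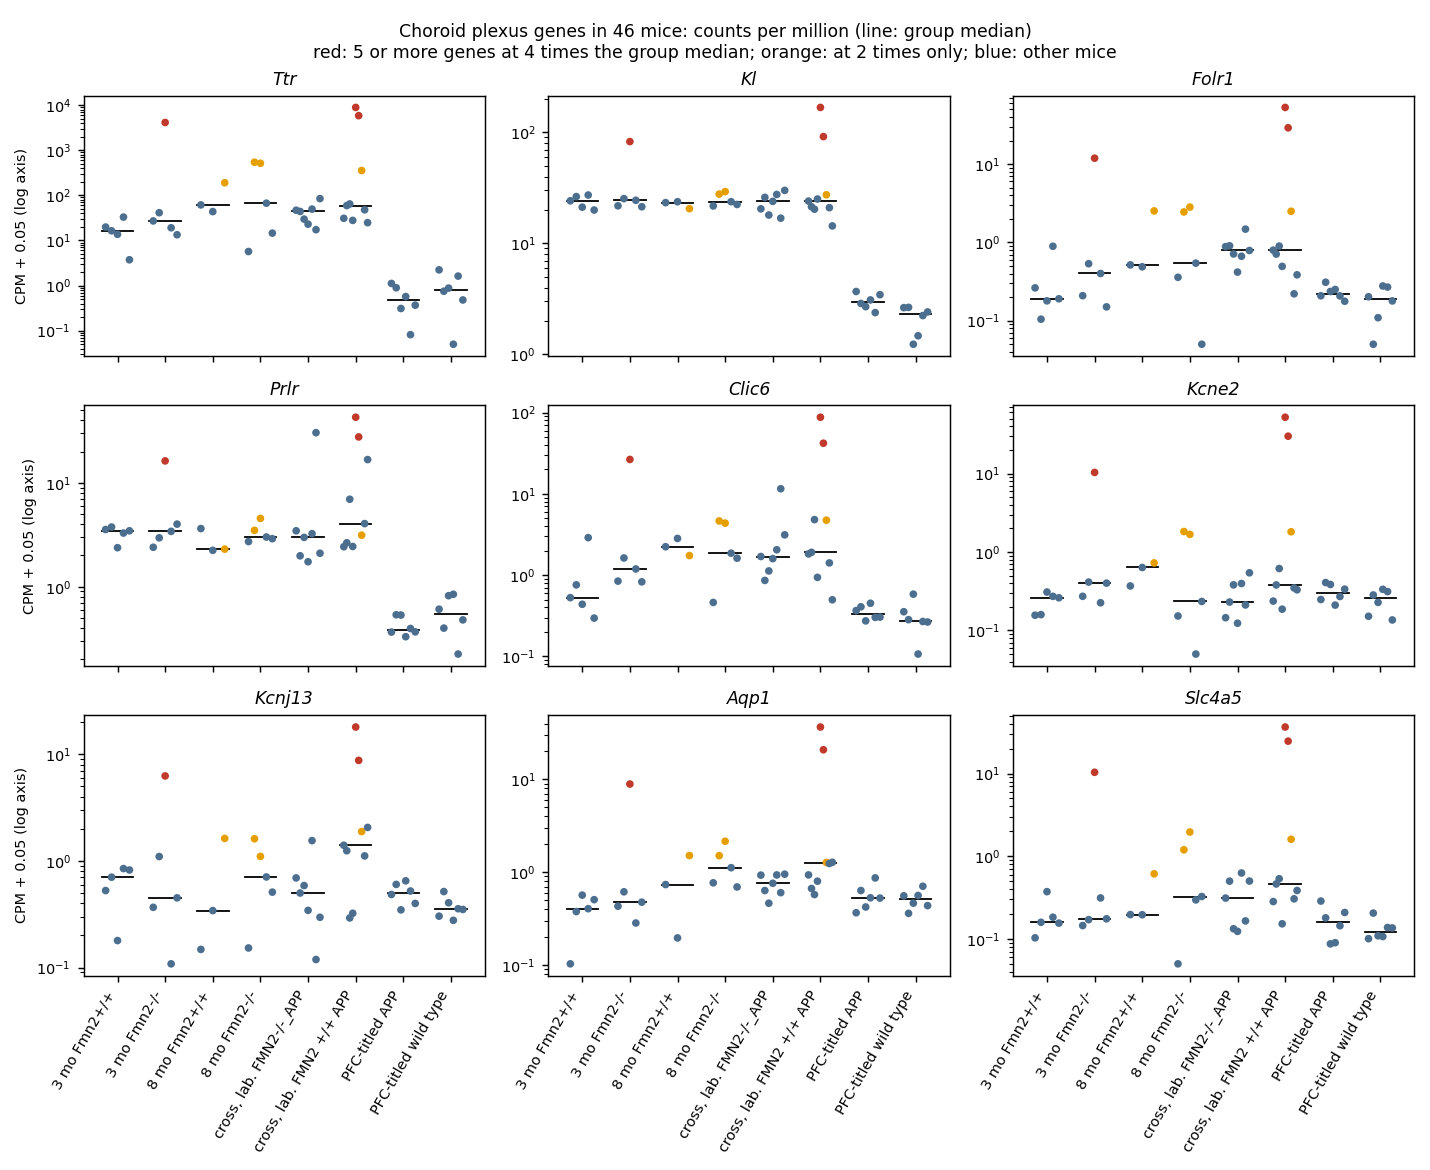
CPM (log axis, with 0.05 added) of the 9 choroid plexus genes in each of 46 mice, by group, with the group median as a line ("lab." stands for labelled). The 3 red mice have at least 5 of the genes at 4 times their group's median or more, among them Ttr at 4138, 8934 and 5868 CPM. The 4 orange mice do so at 2 times the median only.

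The secreted and membrane-bound proteins of the list followed Ttr in the same 3 mice. Klotho, encoded by Kl, is a co-receptor for a hormone that controls phosphate and is made in kidney and choroid plexus. Its CPM was 82.5 in 3-month Fmn2-/- mouse 4 against 21.3 to 25.2 in the 4 other mice of the group, and 167 and 91.5 in cross mice 4 and 5 against 14.3 to 25.03 in the 6 mice of that group other than 4, 5 and 7, which serve as its reference below. Kl had the narrowest baseline of the 9 genes, since the medians of all 6 DG groups lay between 23.2 and 24.4 CPM. Folr1, the folate receptor that moves folate into the fluid, was at 11.9 CPM in mouse 4 against 0.100 to 0.484 in the 4 others of its group. In cross mice 4 and 5 Folr1 was at 53.0 and 29.1 CPM against 0.170 to 0.848 in the 6 reference mice and 2.45 in mouse 7.

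The channels and transporters that move ions and water for fluid secretion were low in the DG and rose in the same animals. Kcne2, an accessory subunit of potassium channels, was at 10.3 CPM in 3-month Fmn2-/- mouse 4 (0.175 to 0.363 in the 4 others) and at 52.1 and 29.9 in cross mice 4 and 5 (0.137 to 0.565 in the 6 reference mice and 1.76 in mouse 7). Slc4a5, a sodium bicarbonate cotransporter, was at 10.3, 36.5 and 24.6 CPM in these 3 mice, against at most 0.263 in the rest of the 3-month group and 0.484 in the 6 reference mice of the cross, with mouse 7 at 1.56. Each of the 9 genes was higher in these mice than in any other mouse of the same group. Aqp1, the water channel of the fluid-facing membrane, was at 8.87, 36.6 and 20.8 CPM, and the inward-rectifier potassium channel gene Kcnj13 at 6.22, 17.96 and 8.71. Clic6, of the chloride intracellular channel family, was at 26.4, 87.5 and 41.9 CPM.

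Counting a gene as high where its CPM was at least 4 times its group's median, 3-month Fmn2-/- mouse 4 had 8 of 9 genes high, cross mouse 4 all 9 and cross mouse 5 8 of 9, Kl being the gene under the limit in both cases. No other mouse reached 5. Both 8-month Fmn2-/- mice 2 and 3 had 4, namely Ttr, Folr1, Kcne2 and Slc4a5. At 2 times the median, 7 mice had 5 genes or more, the 4 added ones being 8-month Fmn2-/- mice 2 and 3, 8-month Fmn2+/+ mouse 3 and cross mouse 7 of the FMN2 +/+ APP label. At 8 times the median the 3 mice remained alone. All 3 were sequenced on lane 6, which held 11 of the 34 DG mice, and all 4 intermediate mice on lane 7, which also held 11. Cross mouse 7 was also run on lane 4, and its 2 runs were summed. Lane was not separated from the mice in these levels.

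**Figure D2:**
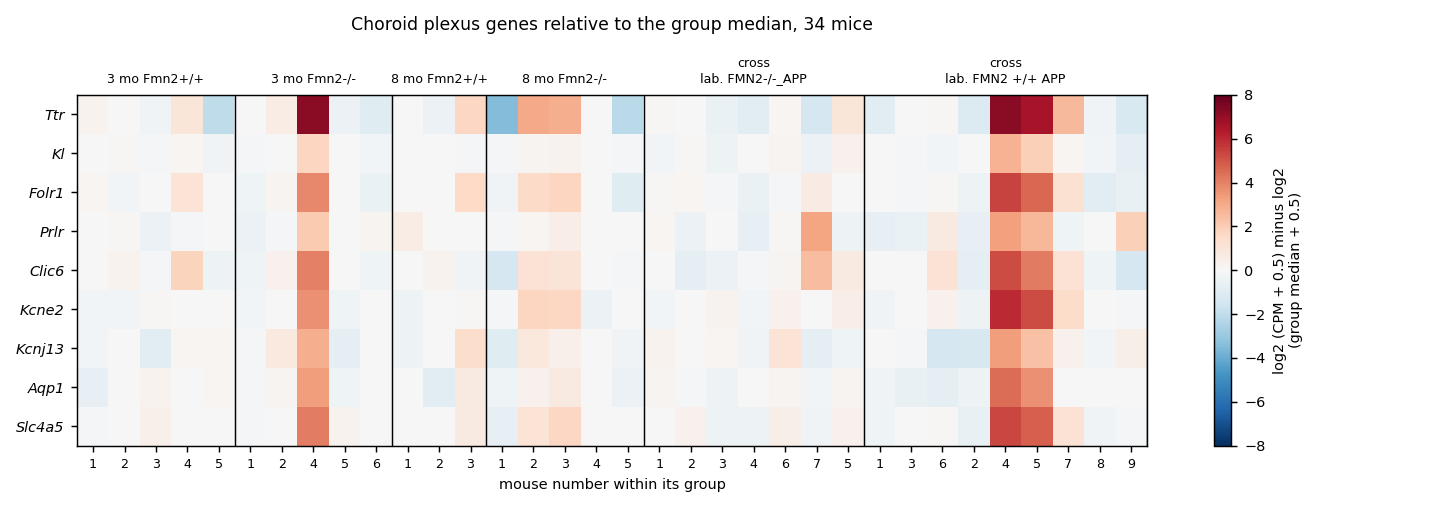
Level of each gene in each of the 34 DG mice as the log2 of CPM plus 0.5 relative to the median of its group, with red above and blue below the median; columns are mice, numbered within their group ("lab." stands for labelled). The columns of 3-month Fmn2-/- mouse 4 and of FMN2 +/+ APP mice 4 and 5 are red for all 9 genes. Those of 8-month Fmn2-/- mice 2 and 3 are so too, with smaller values. FMN2-/-_APP mouse 7 is red for Prlr and Clic6 but not for Ttr.

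The excess of each gene relative to that of Ttr differed by at most 2.40 times among the 3 mice. For each gene the median of the group's remaining mice, without any of the 7 named mice, was taken off and the remainder set against that of Ttr. Per 1000 CPM of Ttr in excess, Kl had 14.4 CPM in 3-month Fmn2-/- mouse 4, 16.5 in cross mouse 4 and 12.1 in cross mouse 5. The widest of the 8 ranges was that of Kcne2, from 2.43 to 5.83, and the narrowest that of Kl, a ratio of 1.36. The 3-month mouse had the lowest value of the 3 for 6 of the 8 genes. In the 4 intermediate mice, whose counts of single genes fell to 5, the same measure for Folr1 ran from 3.94 to 14.6 and for Slc4a5 from 1.70 to 3.97, the highest Folr1 value being that of 8-month Fmn2+/+ mouse 3. In that mouse Kl, Prlr and Clic6 were below the median of the other 2 mice of its group.

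**Figure D3:**
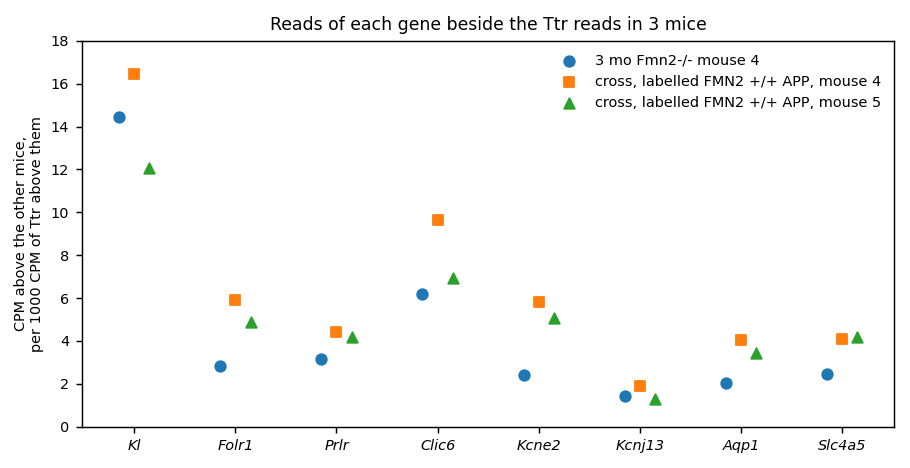
CPM of each gene above the median of the mice of its group that are not among the 7 named, per 1000 CPM of Ttr above that median, in the 3 mice with 5 or more genes high. Each point is 1 mouse; Kl is highest in all 3, at 12.1 to 16.5, and Kcnj13 lowest, at 1.30 to 1.89.

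Per kilobase of exon, Ttr led the list in all 3 mice, at 3489 CPM per kb in 3-month Fmn2-/- mouse 4 and 7533 and 4947 in cross mice 4 and 5. Kl came next in 3-month mouse 4, at 8.84, and Kcne2 in cross mice 4 and 5, at 29.5 and 16.9. Prlr was the lowest of the 9 in all 3, at 1.06, 2.79 and 1.80. In the median DG mouse the order by level per kilobase was Ttr (35.8), Kl (2.55), Kcnj13 (0.511), Clic6 (0.426), Aqp1 (0.266), Folr1 (0.241), Prlr (0.210), Kcne2 (0.163) and Slc4a5 (0.0446).

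Prlr, the receptor of the hormone prolactin, departed most from the common pattern. It was high in the 3 mice (16.2, 42.8 and 27.6 CPM), and also at 30.4 CPM in mouse 7 labelled FMN2-/-_APP, where the 6 others of the group held 1.69 to 3.41, and at 16.7 in mouse 9 labelled FMN2 +/+ APP. In FMN2-/-_APP mouse 7 Clic6 was raised as well, at 11.5 CPM against 0.810 to 3.08 in its group, and Folr1 at 1.43 against at most 0.855, but Ttr was the lowest of the group at 17.3 CPM and Kcnj13 likewise at 0.0691. That library also held genes of hypothalamic neuropeptides, which were picked after their values were seen: oxytocin (Oxt) was at 104.8 CPM and melanin-concentrating hormone (Pmch) at 62.6, where no other mouse of the group passed 0.135 and 0.172. Its summed ependymal markers were 4.63 times and its thalamus and habenula markers 4.91 times the median of the other mice. The part of these cells in the Prlr and Clic6 values was not tested. Across the 34 DG mice, Spearman's rho of each gene with the mean of the other 8, after centring on group means, was lowest for Prlr at 0.51 and highest for Slc4a5 at 0.93. Without the 7 mice named above the values over 27 mice ran from 0.048 for Prlr to 0.59 for Clic6, with 0.46 for Ttr.

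Levels in the PFC-titled mice were lower for every one of the 9 genes by the median. The median over the 34 DG mice was 42.5 CPM for Ttr, 23.8 for Kl and 3.22 for Prlr, against 0.610, 2.59 and 0.390 over the 12 PFC-titled mice. For these 3 genes no PFC-titled mouse reached the lowest DG mouse, and for the other 6 the ranges overlapped. Of all 14752 genes with a mean of at least 1 CPM, 24.2% had no overlap between the same mice, so no more is read from 3 of 9. Of the 6 that overlapped, 5 had medians under 1 CPM in the DG mice and reached that mean through the few high libraries by which the genes were chosen. Region, age, sequencing lane and, for some mice, transgene differ between these sets and cannot be told apart. Among the 6 DG groups, the medians of Ttr went from 16.4 CPM in 3-month Fmn2+/+ mice over 27.1, 44.0, 59.5 and 61.5 to 67.2 in 8-month Fmn2-/- mice, and neighbours in this order overlapped in every case.

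Genes known from the choroid plexus epithelium but not among the 9 were followed as a list of 36. The share of all genes that were highest in the same mouse was not counted, so the counts below are a description only. In 3-month Fmn2-/- mouse 4, 35 of the 36 were above every other mouse of its group, in cross mouse 4 35 and in cross mouse 5 31 were above the 6 reference mice, and the median fold over the list was 4.25, 7.97 and 4.69. Enpp2, which encodes the secreted lipid-processing enzyme autotaxin and has the highest mean level of the list, was at 989, 3491 and 2119 CPM in the 3 mice, and at a median of 125 in the other 3-month Fmn2-/- mice. Slc12a2, a sodium potassium chloride cotransporter, was 1.35 times the median of the others in 3-month mouse 4 and 2.25 and 1.83 times in cross mice 4 and 5. The cation channel gene Trpm3 was 1.63, 2.26 and 1.96 times and the carbonic anhydrase gene Car12 1.35, 1.44 and 1.22 times that median. Igf2, a growth factor gene that meninges express too, was 1.71, 1.87 and 0.98 times. In the intermediate mice 15 to 24 of the 36 were above the reference mice, of which there were only 2 to 6 per group, with median folds of 1.34 to 1.69, leaving out 3 genes whose median was 0 in the others of the 8-month Fmn2-/- group. The 21 of 8-month Fmn2+/+ mouse 3 included Igf2 at 4.56 times the others, and in that mouse the summed meningeal and fibroblast markers were 1.94 times and the endothelial and mural markers 1.87 times the median of the other 2. In the other 3 intermediate mice these sums were 0.98 to 1.21 and 0.95 to 1.29 times. Their part in the counts was not tested.

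The 12 other genes whose levels ran most like the mean of the 9 over the 34 DG mice, after centring each group on its mean, were found among 14586 genes. Tmem72, a membrane protein gene, led with a Spearman rho of 0.97 and was at 22.0 CPM in 3-month Fmn2-/- mouse 4, against a median of 0.0981 in the others. Enpp2 (0.93), the coagulation factor gene F5 (0.91), Mfrp (0.91), 1500015O10Rik (0.90), the tight junction gene Cldn2 (0.88), Slc4a2 (0.83), Trpv4 (0.82), Col8a2 (0.81) and Otx2 (0.79), which encodes a transcription factor of the choroid plexus, were on the list of 36 as well. Col9a3 (0.86) and Slc2a12 (0.80) were not. Without centring the values were 0.83 for Tmem72, 0.35 for Enpp2 and 0.50 for Mfrp. Without the 3 high and 4 intermediate mice, Slc4a2 was at 0.65, Enpp2 at 0.55, Col8a2 and Slc2a12 at 0.49. There 1500015O10Rik was at 0.47 and Col9a3 at 0.25. Tmem72, F5, Mfrp, Cldn2, Trpv4 and Otx2 were then under the mean of 1 CPM that the ranking required. They passed it through the high libraries by which the 9 genes were chosen. The points share libraries and lanes.

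Markers of other tissues did not rise alike in the 3 mice. Ependymal genes, from the ciliated cells that line the ventricles, summed to 45.8 CPM in 3-month Fmn2-/- mouse 4 (2.27 times the median of the other mice of its group), 69.3 in cross mouse 4 (2.21 times) and 40.5 in cross mouse 5 (1.29 times). Meningeal and fibroblast genes were at 0.96, 1.002 and 0.71 times and endothelial and mural genes at 0.97, 0.73 and 0.60 times the median of the others. Dentate granule cell genes were at 0.90, 1.04 and 0.88 times, and no library lacked them. Between the adjacent members Kcne2 and Clic6 on chromosome 16, the genes Smim11 and Rcan1 were at 15.7 and 54.6 CPM in 3-month Fmn2-/- mouse 4 against medians of 15.9 and 56.1 in the others. Kcne1 and Fam243 stayed at or under 0.187 CPM in all 3 mice. The members rose on either side of 2 expressed genes that did not rise with them.

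The study asks how loss of Fmn2 changes DG transcription at 3 and 8 months. At 3 months 0.0301% of the 16630 genes tested were called between Fmn2-/- and Fmn2+/+ mice by edgeR's quasi-likelihood test (adjusted p under 0.05 and a log2 fold change of at least 0.25 in size). By the same test 1750 of all 16630 genes had an unadjusted p under 0.05. Of the 6 choroid plexus genes that passed the filter on low counts 0 were called and 3 had an unadjusted p under 0.05. DESeq2 gave an adjusted p for 1 of them and called 0. All 6 had positive log2 fold changes, from 0.53 for Kl to 5.59 for Ttr (standard error 1.67, adjusted p = 0.287 by edgeR). Without Fmn2-/- mouse 4 the values were 0.51 for Ttr, 0.17 for Clic6, 0.12 for Aqp1, -0.06 for Kl and Prlr and -0.38 for Kcnj13. A single mouse therefore set the size of all 6 and the sign of 3. All Fmn2+/+ mice were on lane 5 and all Fmn2-/- mice but mouse 1 on lane 6, so lane and genotype can hardly be told apart at 3 months. Of the other choroid plexus genes, 26 of 30 tested were above 0 with a median log2 fold change of 0.50, where the median of all genes was 0.0041. Of these 30, 0 were called and 5 had an unadjusted p under 0.05. DESeq2 gave an adjusted p for only 17 genes of the list and called 0. The median without mouse 4 was -0.14, the lowest of the 10 values with 1 mouse left out. With lane as a covariate it was -0.19, and Ttr was at 0.64, Clic6 at -0.22 and Kcnj13 at -0.81. Only Fmn2-/- mouse 1 shared lane 5 with the Fmn2+/+ mice, so that fit compares this mouse alone with them. Mouse 4 does not enter that difference, and the values are no measure of a lane effect.

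At 8 months 1.13% of the 14665 genes tested were called by edgeR, and 3419 had an unadjusted p under 0.05. Of the 7 choroid plexus genes tested 0 were called, with 0 at an unadjusted p under 0.05 and 0 of 2 by DESeq2. All 7 had positive log2 fold changes, from 0.21 for Kl to 1.28 for Ttr (standard error 1.10, adjusted p = 0.507 by edgeR). Without Fmn2-/- mice 2 and 3 the value of Ttr was -1.70 (adjusted p = 0.337 by edgeR) and that of Clic6 -0.70, while Kl and Prlr lay at 0.05 and 0.04. Only these 4 genes passed the filter then. Kcnj13, Aqp1 and Folr1 did not, so nothing is read from the shared sign of the 7. With the counts of the 2 mice summed as 1, Ttr was at 0.71. Without Fmn2+/+ mouse 3 Ttr was at 2.18 and Kcnj13 at 2.58. With no filter on low counts, where 3.93% of 28588 genes were called, Ttr had an adjusted p of 0.0471 by edgeR. In that fit the prior degrees of freedom, the weight of the spread common to all genes, were 94.4 in place of 6.43, and the variance of Ttr was set to 13.0 in place of 97.9. The p therefore hardly uses the spread of Ttr between mice, and no call is read from it. Without mice 2 and 3 those degrees of freedom were infinite, so no p is given. Of the other choroid plexus genes 0 of 27 were called and 1 had an unadjusted p under 0.05. DESeq2 gave an adjusted p for only 14 genes of the list and called 0. The median log2 fold change of the 27 was 0.077. It turned to -0.10 without Fmn2-/- mice 2 and 3 and was 0.00052 with lane as a covariate. Fmn2+/+ mouse 1 alone was on lane 6 and all others on lane 7, so the lane fit sets this mouse aside. This mouse was also the deepest, with 43921030 counts against 6818809 to 11675280 in the others.

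In the cross, the mice labelled FMN2-/-_APP were compared with those labelled FMN2 +/+ APP, and 0.774% of 16656 genes were called at a log2 fold change of at least 0.5 in size. Of all 16656 genes, 2772 had an unadjusted p under 0.05 by edgeR. None of the 8 choroid plexus genes tested passed by edgeR (0 called, 7 at an unadjusted p under 0.05). All 8 were lower in mice labelled FMN2-/-_APP, with log2 fold changes from -0.88 for Prlr over -4.73 for Slc4a5 to -5.36 for Ttr (standard error 1.44, adjusted p = 0.0660 by edgeR). With DESeq2, where 1.78% of 20005 genes were called, Kcnj13 was called (log2 fold change -2.86, adjusted p = 0.0195 by DESeq2) and Ttr was at -0.88. Without mice 4 and 5 labelled FMN2 +/+ APP, Ttr was at -1.05 (adjusted p = 0.431 by edgeR), Kcnj13 at -1.12, Aqp1 at -0.38, Folr1 at -0.08, Kl at 0.08, Prlr at 0.28 and Clic6 at 0.46. Slc4a5 did not pass the filter on low counts in that fit. Without mouse 7 of that label as well, Ttr was at -0.02 and Kcnj13 at -0.94. Leaving out FMN2-/-_APP mouse 7 instead moved Prlr from -0.88 to -2.26.

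Within lanes the picture of the cross differed. Among the 3 and 3 mice of lane 6, which hold cross mice 4 and 5, all 9 genes were lower in mice labelled FMN2-/-_APP, by a median of 3.36 on the log2 scale, and Ttr had medians of 49.7 and 5868 CPM with overlapping ranges. Among the 3 and 3 mice of lane 5, 5 genes were lower and 4 higher, with differences from -0.37 to 0.21, and Ttr had medians of 44.0 and 31.01 CPM. Lane 7 held 1 mouse labelled FMN2-/-_APP. The 3 mice with the highest Ttr of the cross were among those with Y-linked genes above 10 CPM, and the part of sex was not tested. With lane as a covariate the log2 fold changes were -3.19 for Ttr (adjusted p = 0.253 by edgeR), -3.70 for Slc4a5, -2.66 for Kcnj13, -2.32 for Aqp1, -1.87 for Folr1, -0.99 for Clic6, -0.83 for Kl and -0.57 for Prlr. All 8 kept their sign, and 0 were called.

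Of the list of other choroid plexus genes, all 31 tested were lower in mice labelled FMN2-/-_APP. Their median log2 fold change was -1.29 against 0.0057 over all genes. By edgeR an unadjusted p under 0.05 was found for 20 of the 31 and for 2772 of all 16656 genes. The imprinted cell cycle inhibitor gene Cdkn1c was called (log2 fold change -1.08, adjusted p = 0.0272 by edgeR). Without mice 4 and 5 of the FMN2 +/+ APP label the median was -0.21 and 0 genes of the list were called.

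**Figure D4:**
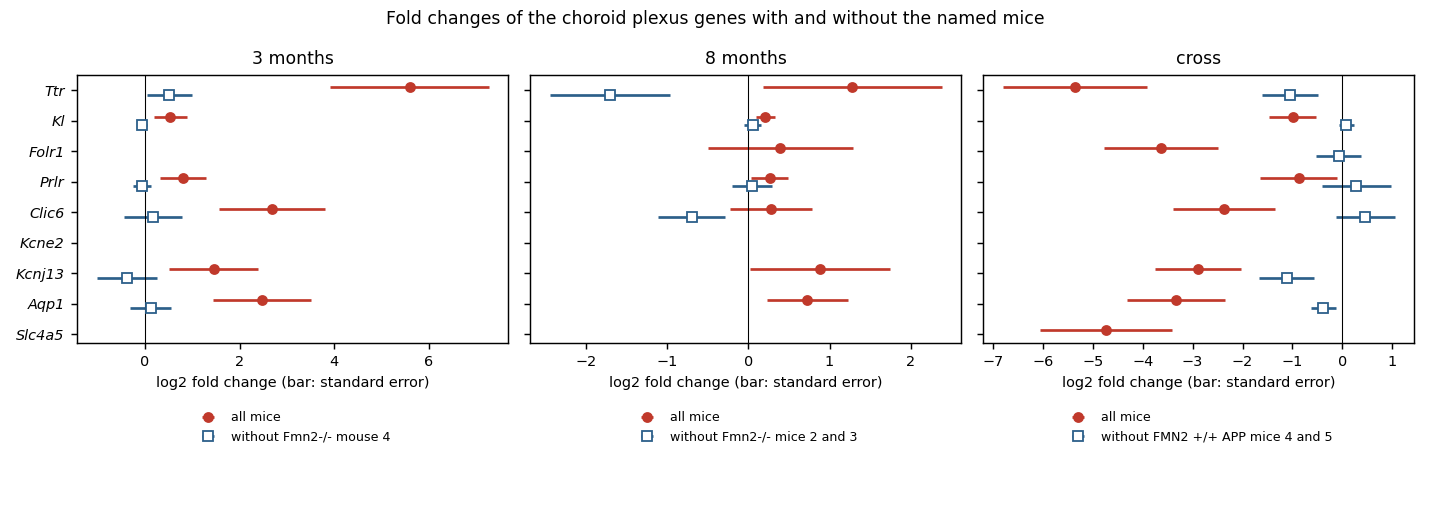
Log2 fold change and its standard error of each choroid plexus gene in 3 comparisons by edgeR, with all mice (filled) and without the named mice (open); a missing point is a gene that failed the filter on low counts. At 3 months Ttr goes from 5.59 to 0.51, at 8 months from 1.28 to -1.70 and in the cross from -5.36 to -1.05.

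In the PFC-titled mice 2.34% of 16733 genes were called between APP and wild type by edgeR, and 2396 had an unadjusted p under 0.05. All APP mice were on lane 7 and all wild-type mice on lane 5. Lane and transgene can therefore not be told apart here, and no fit with the lane could be made. Of the 4 choroid plexus genes tested 0 were called by edgeR or DESeq2, 1 with an unadjusted p under 0.05, and their log2 fold changes were -0.94 for Ttr, 0.50 for Kl, -0.39 for Prlr and 0.16 for Aqp1. Of the other choroid plexus genes 1 of 27 was called, the carbonic anhydrase gene Car12 (log2 fold change -0.65, adjusted p = 0.0387 by edgeR). The list was balanced, with 14 genes above and 13 below 0.

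The level of the 9 genes was then added to each fit as a covariate, the mean log2 CPM per mouse. At 3 months calls went from 5 to 3, all shared. The 2 lost ones, Ndufa3, a subunit of respiratory complex I (log2 fold change 0.33, adjusted p = 0.0488), and 2410015M20Rik (0.38, adjusted p = 0.0488), kept log2 fold changes of 0.32 and 0.36 in edgeR's fit with the covariate. At 8 months calls went from 166 to 25, with 24 shared (from 4 to 2 without Fmn2-/- mice 2 and 3), while the log2 fold changes of the genes that changed call moved by a median of 0.0050. The ribosomal protein gene Rps16, for example, went from an adjusted p of 0.0469 to one of 0.0614 by edgeR, with log2 fold changes of -1.31 and -1.28.

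In the cross calls went from 129 to 90, with 72 shared. Among mice labelled FMN2-/-_APP the mean of the 9 genes was highest in mouse 7, at 1.75. Ttr was the lowest of the group in that mouse, and Prlr and Clic6 were raised. The covariate therefore does not follow Ttr in every mouse. Pla2g5, a secreted phospholipase gene, went from a log2 fold change of -2.46 to -1.11 (adjusted p = 0.0432 and 0.0700 by edgeR) and Inmt, a methyltransferase gene, from -2.65 to -1.79, and both lost their call. Mettl7a3, Ptgs2os2, Gm27252 and Gm44421 were gained. Over the tested genes of the cross 145 log2 fold changes moved by over 0.5, against 50 at 3 months, 7 at 8 months and 2 in the PFC-titled mice. In the PFC-titled mice the 9 genes were low, Kl being the highest by the median at 2.59 CPM. There 373 genes were called with the covariate, 357 of them shared with the fit without it. Ccl28, Slamf6 and Gm7967 were among those lost and Rab20, Ebf3 and Tmem154 among those gained.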

How the data were processed

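The authors sequenced TruSeq libraries of RNA from whole tissue, used STAR for alignment to mm10 and HTSeq (intersection-non-empty mode) for gene-level counting; the strand setting is not given in the sources used here. The deposited values are these raw counts, 1 table per library, and were used as deposited. Reads that could belong to overlapping genes can be lost in such counting. Where a mouse had 2 runs, they were summed. Of 48709 identifiers 48349 matched a name in GENCODE M21, whose exons gave lengths. The 9 genes, the marker lists and the tests were chosen with earlier results of these data known.

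CPM were scaled by edgeR's TMM factors over all 46 mice, with a pseudocount of 0.5 before log2. Each comparison used edgeR 4.0.16 in R 4.3.3 (quasi-likelihood test, TMM, filterByExpr, Benjamini-Hochberg) on its own groups; DESeq2 1.42.0 was an alternative, as were RLE size factors, no filter, leaving out each mouse, the replicate number as a block, the lane, and the mean level of the 9 genes as a covariate. Calls needed an adjusted p under 0.05 and a log2 fold change of 0.25 in size at 3 and 8 months or 0.5 in the amyloid comparisons. The fits were tested on simulated data with 200 changed genes. No single mouse stood apart in those data, so that test does not cover libraries such as the high ones here. Nothing in the labels says that mice came from separate litters, so p-values measure the spread between these mice. Depth was 6818809 to 43921030 counts per mouse, and genes of low level are least precise in the shallow 8-month libraries.

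Named genes are the 9 members, examples of highest mean level of a list of 36 other choroid plexus genes, the 12 genes most like the members, the neighbours between Kcne2 and Clic6, Fmn2, and per comparison up to 6 genes whose call changed with the covariate and whose fold moved most. The hypothalamic and Y-linked genes were added after their values were seen. Removing mice 2 and 3 of the 8-month Fmn2-/- group, or mice 4, 5 and 7 labelled FMN2 +/+ APP, was chosen after seeing the data, as were the fits that combine the former with no filter or with the level of the 9 genes.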

Additional observations from a re-analysis of the deposited data

Results flagged for a closer look

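Within groups of 4 to 10 mice, the gap between the most extreme mouse and its nearest neighbour was set against the range of the group for the 9 genes. Of 63 groups tested, 18 held a value that stood out. Chance flags about 1 in 20 groups, but the genes were chosen for being high in some of these libraries, so the count is a description and is not set against that rate. All 9 genes stood out in 3-month Fmn2-/- mouse 4: Ttr at 4138 CPM, Kl at 82.5, Folr1 at 11.9, Prlr at 16.2, Clic6 at 26.4, Kcne2 at 10.3, Kcnj13 at 6.22, Aqp1 at 8.87 and Slc4a5 at 10.3. In cross mouse 4 labelled FMN2 +/+ APP, Kl at 167 CPM, Clic6 at 87.5 and Kcnj13 at 17.96 stood apart, while its other genes did not, since mouse 5 of the same group was high as well. In mouse 7 labelled FMN2-/-_APP, Prlr at 30.4 CPM and Clic6 at 11.5 stood apart. The 3-month Fmn2+/+ mouse 4 was high for Folr1 at 0.843 CPM and Clic6 at 2.84, with summed ependymal markers 2.69 times the median of the other mice of its group. Single low-level values were Kcnj13 at 1.501 CPM in mouse 6 labelled FMN2-/-_APP and Slc4a5 at 0.155 CPM in PFC-titled wild-type mouse 2. The causes were not tested.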

How the results depend on the processing

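The number of mice with 5 or more of the genes high was 3, and 7 at 2 times the group median. At 3 months the 5 calls became 90 with DESeq2, 14 without a filter, and 3 with RLE size factors, the lane or the choroid plexus level; at 8 months the 166 became 697 with DESeq2, 1124 without a filter, 3 with the lane, 25 with the choroid plexus level, 4 without Fmn2-/- mice 2 and 3 (603 also without a filter, 2 also with the choroid plexus level) and 5 with both summed; in the cross the 129 became 357 with DESeq2, 56 without FMN2 +/+ APP mice 4 and 5, 52 without mouse 7 as well and 45 without FMN2-/-_APP mouse 7 too. With each mouse left out, calls ran from 3 to 49 at 3 months (49 without Fmn2-/- mouse 1, 5 without Fmn2+/+ mouse 4, 3 without any other), from 4 to 3087 at 8 months (4 without Fmn2+/+ mouse 1 or Fmn2-/- mouse 4, 8 without Fmn2-/- mouse 2 or 3, 9 and 10 without mice 5 and 1, 160 without Fmn2+/+ mouse 3, 3087 without Fmn2+/+ mouse 2), from 73 to 171 in the cross (73 and 85 without FMN2 +/+ APP mice 1 and 2, 79 without FMN2-/-_APP mouse 5) and from 365 to 418 in the PFC-titled mice.

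Of the other choroid plexus genes, 0 to 1 were called at 8 months with a mouse left out, 3 without a filter and 2 without a filter and Fmn2-/- mice 2 and 3; in the cross, where 1 was called, 0 to 2 with a mouse left out, 5 with DESeq2, 2 with the lane, and 0 with the choroid plexus level or without the named mice; in the PFC-titled mice, where 1 was called, 0 to 1 and 0 with the level. In a fit with the replicate block, on mice whose number occurs in both groups, calls were 2 at 3 months, 4 at 8 months, 111 in the cross and 383 in the PFC-titled mice, and 0 of the other choroid plexus genes in each. After removal of group means, mice with equal numbers correlated by -0.29 to 0.27. With 3 to 7 such pairs per comparison, these values show no clear pairing but cannot exclude it. The log2 fold changes of the 9 genes changed sign under 11 alternative values at 3 months, 18 at 8 months, 14 in the cross and 1 in the PFC-titled mice. The 8-month fits without a filter hardly use a gene's own spread between mice. The 8-month fit with the lane sets aside Fmn2+/+ mouse 1, the only mouse of that comparison on lane 6. The 3-month fit with the lane compares Fmn2-/- mouse 1 alone with the Fmn2+/+ mice, all on lane 5. DESeq2 by default replaces counts it marks as outliers in groups of 7 or more, and the cause of the other shifts was not tested.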
